A study of Mus musculus with 12 samples.

Results

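Mouse AtT-20 cells, a pituitary tumor line that models the corticotrope, were compared in 2 states: cells carrying a Pax7 labelled NoTag and cells carrying Pax7 Q+GL+. The comparison used the 2 libraries of each state, 4 of the 12 libraries of the series, and 12144 of the 16385 genes in the deposited table, namely those above 0 in all 12 libraries and at 1 FPKM or more in at least 2 of the 4. The values are read as FPKM, although the column names give no unit. FPKM are fragments per kilobase of transcript scaled to the mapped total, a level per gene length. The other 8 libraries, 2 each from cells with Pax7 Q-GL+, Pax7 Q-GL-, Pax3 and Pax7 465, a protein ending at residue 465, were used for the shared estimate of the spread and as values to set beside the comparison. Pools of retrovirus-infected, Geneticin-resistant colonies, with the introduced cDNA under the CMV promoter, are described for the tagged Pax7 constructs. The paper does not say whether the NoTag cells were made in that way. AtT-20 cells were grown in DMEM with 10% fetal bovine serum, and none of the 6 groups is without an introduced Pax factor. The study's methods describe constructs with a 3xFlag tag at both ends of the protein, and the label NoTag names cells whose Pax7 has none. The genotype label of the NoTag cells is Pax7 and gives no isoform. The presence of the tag, the isoform and whatever else sets these 2 libraries apart therefore cannot be told apart in this comparison. The labels do not say whether replicates were separate cultures, and p-values cover no more than the spread among these libraries.

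Pax7 is a transcription factor with a paired domain and a homeodomain that specifies the melanotropes of the pituitary intermediate lobe. It acts as a pioneer factor, binding enhancers in closed chromatin and opening them, and it works together with Tpit, the product of Tbx19 that corticotropes and melanotropes share. Splice forms of its paired domain hold or lack a glutamine (Q) and hold or lack glycine and leucine (GL). Both pituitary lineages cleave proopiomelanocortin (Pomc), but only melanotropes express the convertase Pcsk2 at high levels and make α-MSH.

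The NoTag libraries differed from all others in how their values are distributed, and they may have been quantified apart from the other 10. The sources name the same tools for all 12, and a separate quantification cannot be told apart from the tag or the isoform in any difference below, the 43.2% of genes included. Their summed FPKM was 627305 and 666609, against 413794 to 483161 in the other 10 libraries, 634 and 651 genes were listed at 0 against 1355 to 1407, and the 10 highest genes held 29.1% and 31.6% of the total against 15.0% to 18.9%. Across the tested genes the 2 NoTag libraries correlated with each other at r = 0.995 but with the other 10 at 0.963 to 0.971, while libraries of different groups among those 10 correlated at 0.988 to 0.993. The values were therefore taken as log2(FPKM + 1) and centred on the median of each library, which removed a shift of 0.18 on the log2 scale between NoTag and Q+GL+. Read depth is unknown, since the table gives no counts. The corticotrope and melanotrope markers Tbx19, Pomc, Pcsk1, Neurod1, Pitx1, Pcsk2, Oacyl and Megf11 passed the filter in these cells, while Crhr1, the receptor of corticotropin-releasing hormone, stayed below 1 FPKM in every library. Of 12 markers of other pituitary cells, 4 are in the table and 1 of them, Dio2, reached 1 FPKM, and of 17 stromal, endothelial and blood markers, 6 are in the table and 1, Col1a1, reached that level, in a single Pax3 library. The summed level of the former list was 3.15 to 3.36 FPKM in NoTag against 0.908 to 1.32 in the other 10 libraries, and that of the latter 1.06 to 1.57 against 0.787 to 1.48.

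NoTag and Q+GL+ cells differed at 5245 of 12144 genes, which is 43.2% of those tested (limma, Benjamini-Hochberg adjusted p under 0.05). Of these genes 2695 (22.2%) were higher and 2550 (21.0%) lower in NoTag cells. Without centring the split was 4630 higher and 1081 lower, so that the direction of small differences depends on it. By a log2 difference of at least 1, 252 genes (2.08%) were higher and 126 (1.04%) lower. The values of the 2 groups did not overlap, after centring, at 8968 genes (73.8%). The median absolute log2 difference was 0.23, against 0.083 between the 2 NoTag libraries and 0.088 between the 2 Q+GL+ libraries. In the same fit Q-GL- against Q+GL+ gave 358 genes (2.95%), 250 of them higher (2.06%), 24 by at least 1 (0.198%), and a median absolute difference of 0.10. NoTag against Q-GL- gave 4441 genes (36.6%), of which 198 (1.63%) were higher and 116 (0.955%) lower in NoTag by at least 1. Each of these comparisons shares a pair of libraries with NoTag against Q+GL+, so that only their own values are given. The background is thus high, and the counts of gene groups below are to be read against 22.2% higher and 21.0% lower. Fold changes are differences in log2(FPKM + 1) and understate the change of genes near or below 1 FPKM.

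The introduced Pax7 was at 157 and 159 FPKM in NoTag cells and at 99.9 and 102 FPKM in Q+GL+ cells. It was also at 93.9 to 113 FPKM in the 6 libraries of the other Pax7 groups and at 0.159 and 0.161 FPKM in the Pax3 libraries. The NoTag libraries were thus above all others, by a log2 difference of 0.45 over Q+GL+ (SE 0.05, adjusted p = 5.1e-05, limma) and of 0.58 over Q-GL- (adjusted p = 1.1e-05). The Q-GL- level lay 0.12 below Q+GL+, which did not pass (adjusted p = 0.24). The values include both the introduced and the endogenous gene, and each comparison below is made between cells whose Pax7 transcript levels also differ. Tbx19, on which the Pax7 program depends, was at 143 and 140 FPKM in NoTag and at 121 and 133 FPKM in Q+GL+ cells, a centred difference of −0.02 (SE 0.06, adjusted p = 0.77).

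The melanotrope list, of which the introduced Pax7 is a member, was higher in NoTag than in Q+GL+ cells at all 5 measured genes, with a median log2 difference of 0.91 beside 0.00 over all tested genes. Quantile normalization leaves 4 higher and turns Pomc to lower. Pcsk2, the prohormone convertase that gives melanotropes their α-MSH, was at 65.6 and 64.9 FPKM in NoTag cells and at 11.7 and 12.5 FPKM in Q+GL+ cells. No other library came near the NoTag level, the next being Q-GL- cells at 35.8 and 36.6 FPKM, followed by Pax7 465 at 20.8 and 22.0 FPKM. The difference was 2.16 on the log2 scale (SE 0.06, adjusted p = 8.1e-10, limma), and 20 other settings gave 2.12 to 2.34. NoTag also exceeded Q-GL- cells, by 0.68 (SE 0.06, adjusted p = 5.6e-06). Pcsk2 lies on chromosome 2 of GRCm38, from 143546156 to 143816285 on the plus strand.

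Among the other melanotrope markers, Megf11, which encodes a transmembrane protein with EGF-like repeats, was at 132 and 124 FPKM in NoTag and at 60.8 and 58.6 FPKM in Q+GL+ cells (log2 difference 0.91, adjusted p = 3.8e-06). In Pax7 465 cells it reached 111 FPKM, close below. Oacyl, an acyltransferase-like gene, was at 6.88 and 6.68 FPKM in NoTag and at 2.52 and 2.31 FPKM in Q+GL+ cells, 1.01 higher. Here NoTag was not the highest group, since Q-GL- cells were at 11.1 and 10.6 FPKM, above NoTag by 0.76 (adjusted p = 6.6e-05). Pomc was at 10547 and 10680 FPKM in NoTag and at 6146 and 6756 FPKM in Q+GL+ cells, a difference of 0.54 (SE 0.10, adjusted p = 0.0012), and was −0.54 after quantile normalization. The NoTag and Q-GL- levels of Pomc differed by 0.10 (adjusted p = 0.43).

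**Figure D1:**
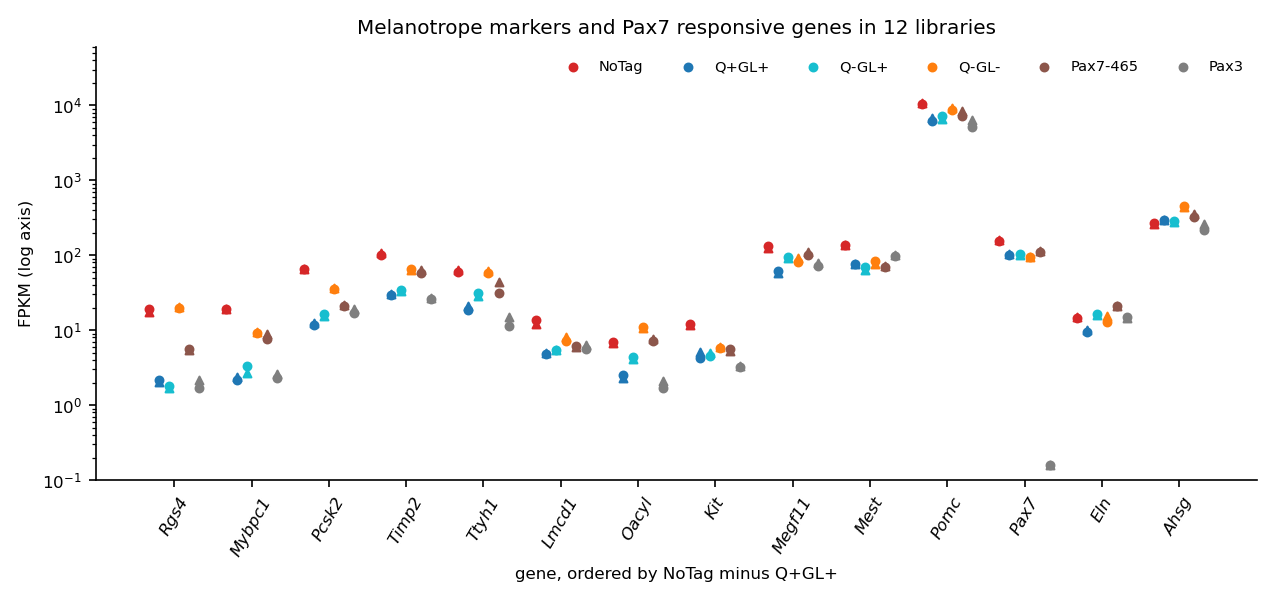
FPKM (log axis) of 14 melanotrope markers and Pax7 responsive genes in 12 libraries, coloured by group, with replicate 1 as a circle and replicate 2 as a triangle. NoTag, in red, lies above both Q+GL+ libraries, in blue, for every gene but Ahsg. For Rgs4, Oacyl and Ahsg it lies below both Q-GL- libraries, in orange.

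A list of 10 genes taken to respond to Pax7 was chosen with earlier results of these data known. It is therefore no independent evidence of direction, and gave 8 higher and 1 lower of 9 tested, with a median of 1.04. Rgs4, a regulator that shortens G-protein signalling, was at 19.0 and 17.3 FPKM in NoTag and at 2.15 and 2.03 FPKM in Q+GL+ cells (log2 difference 2.45, SE 0.09, adjusted p = 1.1e-08). Its levels fell into 2 ranges, since Q-GL- cells were at 19.9 and 20.5 FPKM and the Q-GL+ and Pax3 libraries between 1.69 and 2.15 FPKM, with Pax7 465 between them at 5.68 and 5.37 FPKM. NoTag was below Q-GL- by 0.30 (adjusted p = 0.021). Mybpc1, a myosin-binding protein of slow muscle, was at 18.9 and 19.3 FPKM in NoTag and at 2.16 and 2.41 FPKM in Q+GL+ cells, 2.44 higher, and exceeded Q-GL- cells, at 9.11 and 9.49 FPKM, by 0.82 (adjusted p = 8.1e-05). Timp2, an inhibitor of metalloproteinases, was at 100 and 107 FPKM against 29.2 and 30.3 FPKM, 1.58 higher. Its Q-GL- level, 65.8 and 63.1 FPKM, lay between. Ttyh1, a chloride channel gene, was at 59.9 and 62.9 FPKM against 18.3 and 20.8 FPKM, 1.42 higher, and did not differ detectably from Q-GL- cells (difference −0.13, SE 0.14, adjusted p = 0.48).

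Lmcd1, a LIM-domain transcriptional cofactor, was at 13.7 and 12 FPKM in NoTag against 4.85 and 4.97 FPKM in Q+GL+ (log2 difference 1.04). The receptor tyrosine kinase gene Kit was at 12.1 and 11.6 FPKM against 4.28 and 5.18 FPKM, 0.98 higher, and the imprinted gene Mest at 135 and 138 FPKM against 75.3 and 77.5 FPKM, 0.65 higher. For Kit and Mest the corresponding differences between Q-GL- and Q+GL+ cells were 0.23 (adjusted p = 0.26) and 0.04 (adjusted p = 0.79), neither past the test, while NoTag exceeded Q-GL- by 0.76 and 0.60. Eln, the gene of elastin, was higher by 0.40 in NoTag than in Q+GL+ cells but was highest in Pax7 465 cells, at 21.2 and 20.8 FPKM. Ahsg, which encodes the serum protein fetuin-A, was the exception to the list, at 271 and 259 FPKM in NoTag and at 294 and 293 FPKM in Q+GL+ cells, 0.33 lower (adjusted p = 0.0029), a call lost without centring. In Q-GL- cells it was at 447 and 437 FPKM. Pde2a, a cyclic nucleotide phosphodiesterase, was not tested: it was at 11.5 and 11.5 FPKM in the NoTag libraries and listed at 0 in the other 10.

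Whether genes that separate GL- from GL+ cells elsewhere in the series also separate NoTag from Q+GL+ cells was examined with Q-GL- against Q-GL+ cells. This contrast was chosen once the data were known and has no library in common with NoTag against Q+GL+. It gave 708 genes (5.83%), of which Q-GL- cells had 470 higher (3.87%) and 238 lower (1.96%). Of the 470 genes, 248 (52.8%) were higher and 53 (11.3%) lower in NoTag than in Q+GL+ cells, beside 22.2% and 21.0% of all genes tested, with a median of 0.28. The 248 genes are a small share of the 2695 higher in NoTag cells. Of the 238 genes lower in Q-GL- cells, 104 (43.7%) were lower and 39 (16.4%) higher in NoTag cells, with a median of −0.18. Among the 33 genes (0.272%) higher in Q-GL- cells by at least 1, 29 were higher and 1 lower in NoTag cells, with a median of 1.01. These counts are partly set by the filter, which reads the 4 NoTag and Q+GL+ libraries: 7 of the 33 genes were below 1 FPKM in both Q+GL+ libraries and entered through NoTag alone. Of the other 26, 22 were higher and 1 lower, with a median of 0.86. A gene low in both NoTag and Q+GL+ could not be counted.

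**Figure D2:**
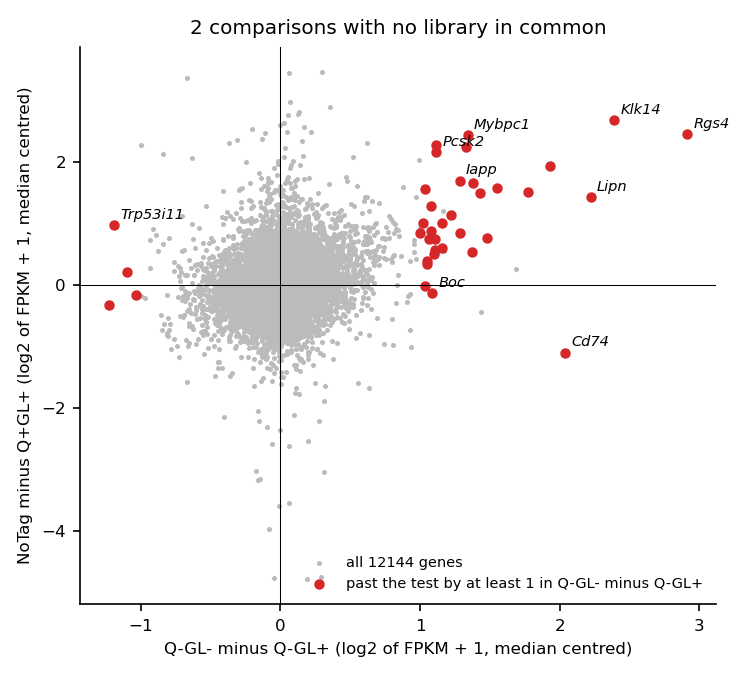
Log2 difference of each of 12144 genes between Q-GL- and Q-GL+ cells (x axis) and between NoTag and Q+GL+ cells (y axis), with no library in common. Genes past the test by at least 1 on the x axis are in red. Of the 33 on the right, 29 are also higher in NoTag cells, Cd74 is lower, and the grey column near 0 on the x axis holds genes with large differences on the y axis only.

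Klk14, a kallikrein-related peptidase, was among the genes that moved most in both comparisons, with NoTag at 11.6 and 11.7 FPKM, Q+GL+ at 0.601 and 0.905 FPKM, Q-GL- at 9.37 and 9.94 FPKM, and Q-GL+ at 0.759 and 1.25 FPKM. The log2 difference was 2.68 for NoTag over Q+GL+ (SE 0.17, adjusted p = 7.4e-07) and 2.39 for Q-GL- over Q-GL+ cells. Klk14 and Lipn are among the 7 genes that passed the filter through the NoTag libraries alone, so that they had to differ in NoTag and add no support. Lipn, a lipase gene named after its values were seen, was at 3.31 and 3.62 FPKM in NoTag and at 0.434 and 0.503 FPKM in Q+GL+ cells, 1.42 higher, with Q-GL- cells at 9.05 and 8.39 FPKM. The gene that went the opposite way was Cd74, which escorts MHC class II molecules, at 3.62 and 4.71 FPKM in NoTag, 8.13 and 9.38 FPKM in Q+GL+, and 1.09 and 1.13 FPKM in Q-GL+ cells. It was thus 1.10 lower in NoTag than in Q+GL+ cells and higher by 2.04 when Q-GL- was set against Q-GL+. The 3 genes of the 33 that did not pass in NoTag cells, named after their values were seen, were Boc, a co-receptor of Hedgehog, at −0.13 (adjusted p = 0.32), Epm2a, a glycogen phosphatase, at 0.34 (adjusted p = 0.13), and Fhit at −0.01 (adjusted p = 0.97). Of the 4 genes (0.0329%) lower in Q-GL- cells by at least 1, none was lower in NoTag cells and Trp53i11, a p53-inducible gene, was higher by 0.97 (adjusted p = 2.8e-06), while Sytl2, Pcp4 and Gm37494 did not pass.

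Of 9 tested corticotrope markers, 1 was higher and 5 were lower in NoTag cells, with a median of −0.18. Leaving out NoTag replicate 1 or Q+GL+ replicate 1 gave 3 lower, leaving out NoTag replicate 2 or Q+GL+ replicate 2 gave 2 lower, and without centring 2 were higher and 1 lower, with a median of 0.00. Nr4a1, the orphan receptor Nur77 that drives Pomc, was at 1.24 and 1.39 FPKM in NoTag and at 2.67 and 2.90 FPKM in Q+GL+ cells (log2 difference −0.89, adjusted p = 1.8e-04), below all other libraries. Il6st, the gp130 receptor subunit, was 0.31 lower, a call lost without centring. Pcsk1, which corticotropes use to make ACTH, was at 300 and 280 FPKM in NoTag and at 288 and 310 FPKM in Q+GL+ cells, so that its levels overlapped before centring, and its centred difference of −0.22 (adjusted p = 0.018) was lost without centring and without either of NoTag replicate 2 and Q+GL+ replicate 2. The glucocorticoid receptor gene Nr3c1, at −0.18 (adjusted p = 0.048), and Neurod1, at −0.19 (adjusted p = 0.037), overlapped likewise, and both calls were lost whenever any 1 of the 4 libraries was left out. Nr3c1 was 0.00084 without centring. Cdk5r1, an activator of Cdk5, was the gene that was higher, by 0.51, a call lost without NoTag replicate 2 and without Q+GL+ replicate 1. Lifr, at 0.28 (adjusted p = 0.0503), Gata2, at −0.10, and Tbx19 did not pass, although Lifr did in 11 of 20 other settings.

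Of 10 tested transcription factors of the pituitary lineage, none was higher and 4 were lower (2 without centring, without NoTag replicate 1 or without Q+GL+ replicate 1), with a median of −0.19. Sox2, the factor of pituitary progenitors, was at 3.10 and 2.74 FPKM in NoTag and at 4.54 and 4.96 FPKM in Q+GL+ cells, 0.73 lower. Eya1, a coactivator, was 0.52 lower, and Pitx1, which acts with Tpit on Pomc, was 0.43 lower, a call lost without centring, without NoTag replicate 1 and without Q+GL+ replicate 1. Of 27 chromatin partners of pioneer factors, 4 were higher and 7 lower, which turned to 8 higher and 2 lower without centring and to 3 higher and 4 lower without NoTag replicate 1. Kdm6a, the H3K27 demethylase UTX on the X chromosome, was at 19.0 and 18.1 FPKM in NoTag and at 8.82 and 9.58 FPKM in Q+GL+ cells, 0.76 higher, and Smarca2, an ATPase of SWI/SNF, was 0.51 higher. Tet2, which oxidizes 5-methylcytosine, was at 2.45 and 2.39 FPKM against 4.99 and 5.83 FPKM, 1.08 lower, and Kmt2c, an H3K4 methyltransferase, was 0.70 lower. For these 4 genes the Q-GL- minus Q+GL+ differences were −0.09 to −0.01.

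Of 25 genes for processing prohormones and building secretory granules, 13 were higher and 5 lower in NoTag cells, with a median of 0.22 (3 lower without NoTag replicate 2 or Q+GL+ replicate 2). Pcsk2 is among them. Pam, which adds the terminal amide to peptides, was at 159 and 145 FPKM in NoTag and at 76.9 and 80.9 FPKM in Q+GL+ cells, 0.76 higher, with Q-GL- cells next at a mean of 120 FPKM. Ptprn2, the granule membrane protein phogrin, was at 34.1 and 34.6 FPKM against 15.7 and 17 FPKM, 0.85 higher. Vgf, a granule peptide precursor induced by growth factors, was 0.99 lower, at 29.9 and 31.9 FPKM against 51.6 and 58.2 FPKM. The other 4 genes that were lower, named after their values were seen, were Cpd at −0.65, Snap25 at −0.23, Pcsk1 at −0.22 and Pcsk1n at −0.15. Of 46 synaptotagmins and SNARE proteins, which fuse vesicles with membranes, 13 were higher and 9 lower (22 and 3 without centring, 5 lower without NoTag replicate 1 or Q+GL+ replicate 2). The calcium sensors Syt1, at 0.77, Syt11, at 0.75, and Syt7, at 0.57, were higher and Syt5 was 0.56 lower. Of 46 Rab GTPases, 9 were higher and 12 lower (20 and 3 without centring), and the largest differences, Rab3c at 2.77 and Rab21 at −1.64, were in genes whose other 10 libraries stayed within a log2 range of 0.36 and 0.42. The gene bounds of Rab3c differ from those of GENCODE vM21.

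The direction of metabolic genes differed by list, and the respiratory chain list, given below, had 36 of 80 higher and 2 lower. Of 26 genes of cholesterol and fatty acid synthesis, 23 were lower in NoTag against Q+GL+ and 0 were higher, with a median of −0.66. Without centring 19 were lower, and among genes with no overlap and unchanged bounds 17 of 18 were lower. These enzymes share control by the sterol-regulated factor SREBP2 or its relative SREBP1. Hmgcs1, which makes the precursor of mevalonate, was at 42.0 and 45.6 FPKM in NoTag and at 107 and 117 FPKM in Q+GL+ cells (log2 difference −1.52, SE 0.07, adjusted p = 5.9e-08). The other 8 libraries were at 78.7 to 100 FPKM, so that NoTag lay below all of them. Idi1, the isopentenyl isomerase, was at 13.1 and 11.1 FPKM against 29.3 and 30.5 FPKM, 1.42 lower. Msmo1, a sterol methyl oxidase, was at 72.3 and 76.0 FPKM against 138 and 153 FPKM, 1.14 lower, and Sqle, squalene epoxidase, at 73.0 and 74.3 FPKM against 123 and 128 FPKM, 0.94 lower. The 3 genes that did not pass, named after their values were seen, were Acly at −0.12, Srebf2 itself at −0.22 and Dhcr7 at 0.02. Between Q-GL- and Q+GL+ cells 2 genes of this list were lower and none was higher, with a median of −0.14.

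Glycolytic and hypoxia-inducible genes were also mostly lower, at 18 of 22 lower and 2 higher, with a median of −0.55 (12 lower and 2 higher without centring). Hk2, the hexokinase induced by hypoxia and insulin, was at 21.1 and 26.2 FPKM in NoTag and at 105 and 116 FPKM in Q+GL+ cells (log2 difference −2.37, SE 0.10, adjusted p = 3.5e-08). The other 8 libraries were at 90.7 to 118 FPKM. Ndrg1, a stress-induced gene, was at 34.9 and 36.6 FPKM against 106 and 114 FPKM, 1.77 lower. The glucose transporter gene Slc2a1 was at 38.1 and 42.2 FPKM against 91.4 and 99.1 FPKM, 1.41 lower, and Ankrd37, a target of HIF-1, at 72.6 and 75.8 FPKM against 156 and 171 FPKM, 1.31 lower. The 2 genes that were higher, named after their values were seen, were the muscle phosphofructokinase Pfkm, at 0.62, and the phosphoglycerate mutase Pgam1, at 0.59. Between Q-GL- and Q+GL+ cells no gene of the list differed, and the median was 0.11.

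**Figure D3:**
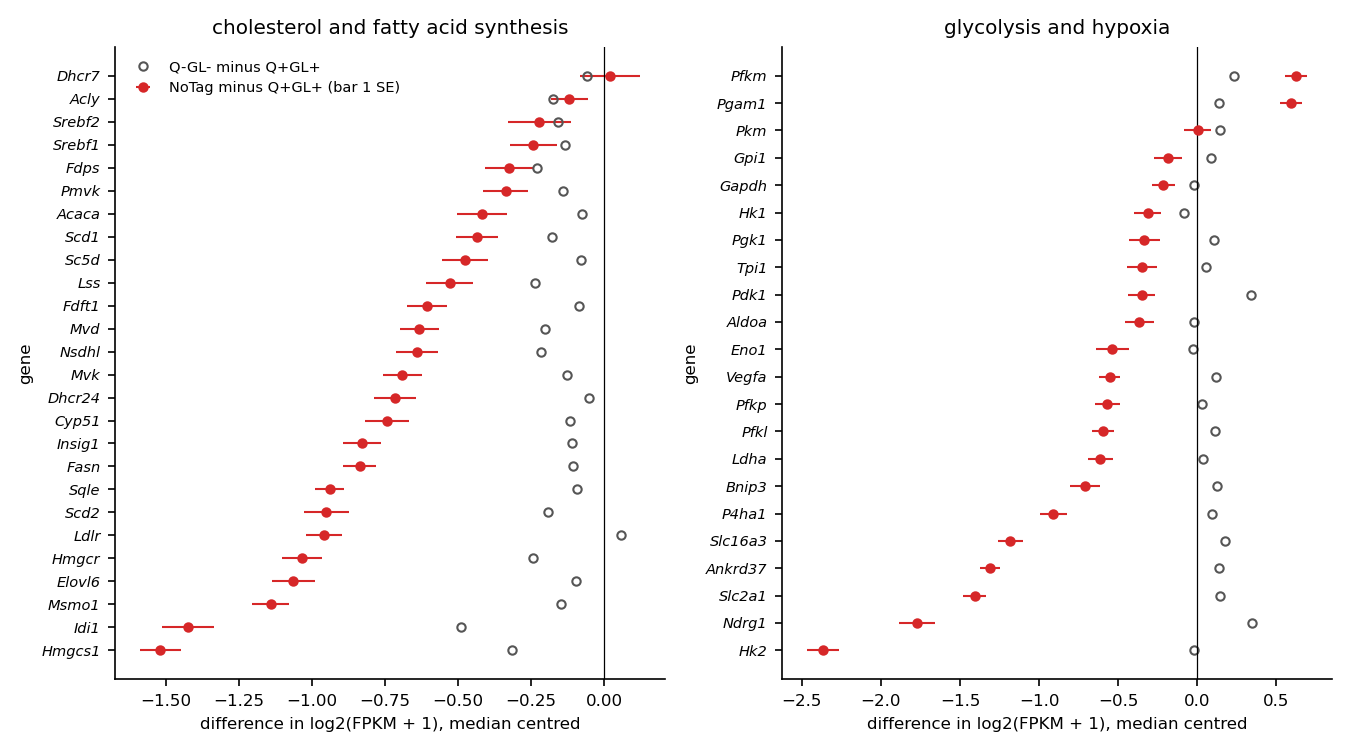
Difference in log2(FPKM + 1), median centred, of each tested gene of cholesterol and fatty acid synthesis (left) and of glycolysis and hypoxia (right). Red points are NoTag minus Q+GL+ with bars of 1 SE, and open points are Q-GL- minus Q+GL+. The red points reach −1.52 at Hmgcs1 and −2.37 at Hk2, while the open points lie between −0.49 and 0.35.

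Promoters of both lists, beside those of other tested genes, were searched in the RefSeq table of GRCm38.p6. It holds 250 bases before to 50 after a start for 9320 of the 12144 genes. The letters ACGTG, the core of the site that HIF factors bind, were on either strand (CACGT where the match is on the opposite one) in 17 of 33 promoters of the glycolysis and hypoxia list (51.5%), in 35 of 90 promoters of genes lower by at least 1 (38.9%), in 48 of 204 of genes higher by at least 1 (23.5%) and in 25.6% of promoters of all tested genes. The glycolysis and hypoxia list was chosen to hold hypoxia-inducible genes, so its share was partly set in advance, and a cause was not tested. Its 33 promoters are starts of 21 genes and include matches at Pfkm and Pgam1, which were higher. The letters TCACNCCAC of the sterol response element were in 1 of 23 promoters, from 18 genes, of the cholesterol list (4.35%) and in 1.15% of all. The 250 bases before the start of the genes with the largest differences that hold these letters are given 5′ to 3′ with the match in capitals, Hk2 at chr6:82774455-82774704 on the minus strand, Slc2a1 at chr4:119108495-119108744 on the plus strand, Ankrd37 at chr8:45999851-46000100 on the minus strand and Hmgcs1 at chr13:119690101-119690350 on the plus strand.
Hk2: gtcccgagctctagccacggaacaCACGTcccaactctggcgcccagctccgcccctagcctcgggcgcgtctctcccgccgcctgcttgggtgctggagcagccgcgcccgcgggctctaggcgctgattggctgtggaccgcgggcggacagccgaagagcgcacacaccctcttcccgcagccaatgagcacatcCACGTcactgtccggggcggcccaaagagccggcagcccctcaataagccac
Slc2a1: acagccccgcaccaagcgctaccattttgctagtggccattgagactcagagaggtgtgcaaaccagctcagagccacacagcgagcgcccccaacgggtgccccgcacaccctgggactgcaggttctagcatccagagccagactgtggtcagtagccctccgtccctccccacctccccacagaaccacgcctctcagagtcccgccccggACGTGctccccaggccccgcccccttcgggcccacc
Ankrd37: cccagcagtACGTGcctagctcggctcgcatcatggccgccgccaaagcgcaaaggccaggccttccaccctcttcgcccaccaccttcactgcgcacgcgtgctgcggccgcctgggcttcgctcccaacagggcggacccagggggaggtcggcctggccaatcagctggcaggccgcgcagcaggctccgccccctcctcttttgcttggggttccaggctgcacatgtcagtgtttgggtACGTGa
Hmgcs1: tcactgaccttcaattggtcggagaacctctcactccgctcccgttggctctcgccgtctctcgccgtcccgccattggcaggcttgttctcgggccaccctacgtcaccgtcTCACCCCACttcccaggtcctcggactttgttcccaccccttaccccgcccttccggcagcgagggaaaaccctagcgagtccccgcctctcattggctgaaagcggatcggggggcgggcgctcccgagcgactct

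Of the letters of paired homeodomain sites, TAAT followed by ATTA after 2 bases and after 3 bases were in 0.126% and 0.176% of promoters of all tested genes and in none of the 204 promoters of genes higher by at least 1, and the paired domain letters GTCACG were in 11.8% of those 204 and in 13.6% of all. A match of letters is a description of these windows alone, and enhancers were not searched.

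Stress and signalling genes gave smaller groups. Of 15 immediate early genes, induced within minutes of stimulation, 9 were lower and 1 higher, with a median of −0.37, and none was higher without NoTag replicate 1 or Q+GL+ replicate 1. Fosl2, an AP-1 subunit, was at 6.81 and 6.03 FPKM in NoTag and at 14.8 and 15.3 FPKM in Q+GL+ cells, 1.30 lower, Ier3 was 1.09 lower, Klf4 0.88 lower and Btg2 0.70 lower. Atf3, named after its value was seen, was higher, at 0.47. Of 10 heat shock proteins, 5 were lower, led by Dnajb1 at −0.72, and 1 was higher, but without centring 1 was lower and 2 were higher, and without NoTag replicate 2, Q+GL+ replicate 1 or Q+GL+ replicate 2 it was 3 lower. In the unfolded protein response 7 of 23 were higher and 3 lower (6 lower after quantile normalization), with Herpud1, of ER-associated degradation, at 70.3 and 69.3 FPKM against 30.5 and 33.1 FPKM (0.93 higher), the apoptosis-linked Chac1 0.54 higher, the factor Xbp1 0.40 higher and the cochaperone Dnajb9 0.72 lower. Of 31 cell cycle genes 9 were lower and 4 higher, which became 4 lower and 13 higher without centring, 6 and 1 without NoTag replicate 1 and 7 and 2 without Q+GL+ replicate 1. Mki67, the proliferation marker, was at 57.4 and 59.4 FPKM in NoTag and at 81.4 and 76.3 FPKM in Q+GL+ cells, 0.61 lower. Bub1 was 0.52 lower, Plk1 0.37 lower and Cdkn1b, the p27 inhibitor of division, 0.33 lower, the last 2 calls being lost without centring.

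Among 14 tested genes of the type I interferon response, 8 were lower and 2 higher, with a median of −0.38, and 3 were lower and 3 higher without centring and 5 lower without NoTag replicate 1. The deubiquitinase-like Usp18 was at 2.51 and 2.30 FPKM in NoTag and at 4.33 and 4.06 FPKM in Q+GL+ cells, 0.79 lower. Mx1, at 2.60 and 1.45 FPKM against 0.162 and 0.232 FPKM, and Stat2, at 0.44, were the 2 that were higher. Mx1 passed the filter through NoTag alone, so that it had to be higher there. Of 12 genes of MHC class I presentation and Cd74, 5 were higher and 1, Cd74, was lower, with 2 higher without NoTag replicate 2 or Q+GL+ replicate 1 and 3 higher without either of the other libraries. The immunoproteasome subunit Psmb10 was at 4.6 and 4.80 FPKM against 1.33 and 1.14 FPKM, 1.17 higher. Another subunit, Psmb8, was 0.36 higher, a call lost without NoTag replicate 2 and without either Q+GL+ library, and the heavy chain H2-K1 was 0.37 higher.

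Genes of the V-ATPase and the lysosome were higher at 17 of 34 and lower at 1 (17 and 7 after quantile normalization, 15 and 2 without NoTag replicate 1), with a median of 0.21. The cathepsins led this group. Ctsb was at 66.4 and 66.1 FPKM in NoTag and at 15.9 and 17.3 FPKM in Q+GL+ cells, 1.75 higher, and Ctsl, which also processes prohormones, was at 447 and 455 FPKM against 118 and 128 FPKM, 1.69 higher. For both, the other 8 libraries stayed at or below 22.0 and 166 FPKM. Ctsf was 1.28 higher and Npc2, a cholesterol carrier of the lysosome, 0.65 higher. The gene that was lower, Atp6v1d at −0.69, was named after its value was seen. In Q-GL- minus Q-GL+ cells 9 genes of the list were higher and 1 was lower, Ctsb by 0.47 and Ctsl by 0.48 among those higher.

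Nuclear genes of the respiratory chain and ATP synthase were higher at 36 of 80 and lower at 2, with a median of 0.18 (36 and 9 after quantile normalization, 55 and 0 without centring, and 27 to 31 higher and at most 1 lower without any 1 of the 4 libraries). Only Ndufa11 and Ndufs4, both subunits of complex I, passed a log2 difference of 1. Ndufa11 was at 194 and 174 FPKM in NoTag and at 18.9 and 20.7 FPKM in Q+GL+ cells, 2.97 higher, with the other 8 libraries at 17.6 to 21 FPKM. Ndufs4 was at 239 and 231 FPKM against 49.0 and 47.5 FPKM, 2.08 higher. Cox7b, of complex IV, was 0.98 higher and Atp5md, of ATP synthase, 0.90 higher. The gene bounds of Ndufa11 and Ndufs4 in the table differ from those of GENCODE vM21. Of 82 cytosolic ribosomal protein genes 27 were higher and 4 lower, which became 29 and 17 after quantile normalization, 46 and 1 without centring, 18 and 2 without NoTag replicate 2, 17 and 2 without Q+GL+ replicate 1, and 20 and 2 without Q+GL+ replicate 2. Rps25 was 1.27 higher and Rpsa 0.83 higher, while Rps26 was 0.99 lower. These genes have many processed copies, so that their levels are uncertain where reads were shared between copies. With Q-GL- set against Q+GL+, 0 of the 82 passed the test.

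**Figure D4:**
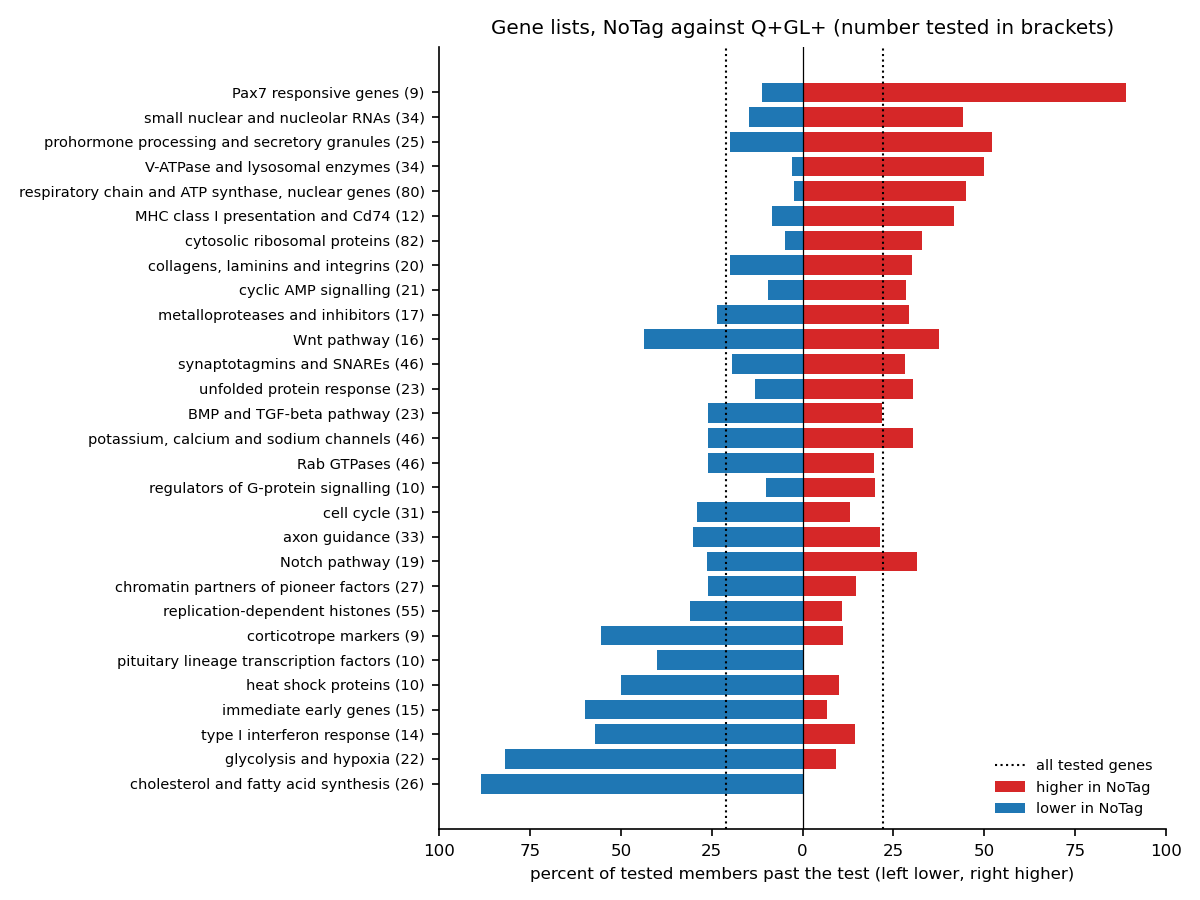
Percent of the tested members of each gene list with at least 9 tested genes that were higher (red, right) or lower (blue, left) in NoTag than in Q+GL+ cells, ordered by median difference, with the number tested in brackets. Dotted lines mark all tested genes, 22.2% higher and 21.0% lower. Pax7 responsive genes reach farthest to the right, and cholesterol synthesis and glycolysis farthest to the left.

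Surface and matrix families held members that were higher and members that were lower. Of 46 potassium, calcium and sodium channel genes 14 were higher and 12 lower, with Kcnk16, a background potassium channel, 1.01 higher, Scn2b 0.90 lower and Kcnj9 0.89 lower. Of 20 collagens, laminins and integrin genes 6 were higher and 4 lower (11 and 3 without centring). Lama4, a laminin of vessel walls, was at 11.9 and 11.3 FPKM against 2.98 and 3.31 FPKM, 1.42 higher, Col22a1 was 0.94 higher and Col18a1 0.75 higher. Itgb3bp, which was counted in this list but is not itself an integrin, was 0.48 lower. In the metalloprotease list 5 of 17 were higher and 4 lower (2 lower without centring or Q+GL+ replicate 2), with Adamts9 1.06 higher, Adam23 0.95 higher and Adam9 0.43 lower. Adamts9 passed the filter through NoTag alone, so that it had to be higher there. Of 33 axon guidance genes, where centring (12 higher and 5 lower without it) and NoTag replicate 1 (5 and 4 without it) moved the counts, 7 were higher, led by the semaphorin Sema6b at 1.12, and 10 lower, among them Epha5 at −0.95, Efna1 at −0.73 and Efna2 at −0.59.

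Developmental pathways were mixed as well, and their counts moved with single libraries. Without NoTag replicate 1 the BMP and TGF-β list had 4 higher and 3 lower, and the Wnt list 5 and 4. Without Q+GL+ replicate 1 the BMP and TGF-β list had 3 and 3. The Notch list had 5 higher and 2 lower without NoTag replicate 1, 2 and 4 without NoTag replicate 2, 3 and 1 without Q+GL+ replicate 1, and 4 and 3 without Q+GL+ replicate 2. The cyclic AMP list had 5 and 4 without NoTag replicate 1 and 3 and 2 without NoTag replicate 2. Without centring these 4 lists had 8 and 3, 7 and 3, 7 and 1, and 11 and 2. In the BMP and TGF-β pathway 5 of 23 were higher and 6 lower, and the ligands split, with Bmp7 at 5.94 and 6.13 FPKM against 2.39 and 2.29 FPKM (0.89 higher), Tgfb3 0.85 higher, and the activin subunit Inhbe 0.69 lower together with the receptor Acvr1b at −0.53. In the Wnt pathway 6 of 16 were higher and 7 lower, with the agonist Rspo4 1.0 higher, the receptor Fzd10 0.62 higher, the ligand Wnt10a 0.66 lower and the co-receptor Lrp5 0.88 lower. In the Notch pathway 6 of 19 were higher and 5 lower, Hes6 at 0.54, the ligand Dll3 at 0.45, the glycosyltransferase Mfng at 0.32, a call lost without NoTag replicate 2, and the Numb relative Numbl at −0.45. Of 21 genes of cyclic AMP signalling 6 were higher and 2 lower, with the phosphodiesterases Pde4d 0.81 higher, Pde10a 0.51 higher and Pde1c 0.85 lower, and the factor Creb1 0.53 lower. Of 10 regulators of G-protein signalling 2 were higher, Rgs4 and Rgs7 (0.51), and Rgs11 was 1.20 lower. In Q-GL- minus Q-GL+ the BMP and TGF-β list had 2 higher and 1 lower, and the Wnt list 2 and 0. For the Notch list it was 0 and 1 and for the cyclic AMP list 4 and 0, beside 3.87% and 1.96% of all tested genes. Bmp7, Tgfb3, Pde4d and Pde10a, picked after their values were seen, were higher there by 0.85, 1.28, 0.67 and 0.42. Rspo4 was higher by 1.02, but it passed the filter through NoTag alone, so that it had to differ in NoTag. Dio2, the deiodinase of the pituitary, was 0.82 higher, and in the skeletal muscle list, whose summed level was 8.79 to 9.04 FPKM in NoTag against 3.91 to 5.41 in the other 10 libraries, neither of the 2 tested genes, Des at 0.45 and Myh3 at 0.19, passed. Tnnt1, of slow muscle, was not tested, at 1.01 and 1.27 FPKM in NoTag and listed at 0 in the other 10. The part of these markers in other results was not tested.

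For most genes with the largest differences NoTag lay outside all other libraries. Of the 378 genes past the test by at least 1, 366 had both NoTag libraries outside the range of the other 10, beside 23.5% of tested genes above and 21.0% below that range, in 322 (85.2%) the other 10 libraries lay within a log2 range under 1, beside 97.0% of all tested genes, and in 261 (69.0%) the Q-GL- minus Q+GL+ difference was under 0.25 in size, beside 86.0%. Tomm20, a receptor of the mitochondrial import pore, was at 148 and 153 FPKM in NoTag, against 18.5 and 19.0 FPKM in Q+GL+ and 18.1 to 22.2 FPKM in the other 8 libraries (log2 difference 2.76, adjusted p = 6.0e-10). Eny2, of the SAGA complex, was at 142 and 139 FPKM against 15.3 to 19.9 FPKM in the other 10 libraries, 2.81 higher. The same held for the mitochondrial ribosomal gene Mrpl57, 2.59 higher, the aminopeptidase gene Aopep, 2.62 higher, and the small Cajal body RNA Scarna6, 2.56 higher, a call lost without NoTag replicate 1 and without Q+GL+ replicate 1. Aqp1, a water channel, was at 35.1 and 34.7 FPKM in NoTag against 2.11 to 3.86 FPKM in the other 10, 2.89 higher. Cst6, a cystatin that inhibits cathepsins, was at 33.6 and 33.2 FPKM against 1.81 to 3.99 FPKM, 3.37 higher. Nav3 and Gm7324 passed the filter through NoTag alone. Nav3, a neuron navigator, was at 11.1 and 12 FPKM against at most 0.282 FPKM, and the gene model Gm7324 at 11.1 and 14 FPKM against at most 0.50 FPKM, both 3.45 higher. Tomm20, Eny2, Aopep, Scarna6, Nav3 and Gm7324 overlap another gene on the same strand. The bounds of Tomm20 also differ from those of GENCODE vM21.

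Genes with the lowest NoTag values showed the same pattern. Of those below, Sh3bp1, Nupl1 and Nudt8 passed the filter through Q+GL+ alone, so that they had to be lower in NoTag. Sh3bp1, a Rac GTPase-activating protein, was at 0.319 and 0.194 FPKM in NoTag and at 25.8 to 34.4 FPKM in the other 10 libraries (log2 difference −4.78, adjusted p = 1.7e-11). Nupl1, a nucleoporin, was listed at 6.4e-51 and 4.9e-26 FPKM against 20.8 to 24.6 FPKM. Terc, the telomerase RNA, was at 3.37 and 0.00014 FPKM and Pnp, purine nucleoside phosphorylase, at 4.20 and 0.00014 FPKM in the 2 NoTag libraries, against 44.6 to 65.9 and 13.9 to 17.3 FPKM in the others. Values above 0 and under 0.0001 FPKM occurred at 20 and 17 genes in the NoTag libraries and at 0 to 2 genes in each of the others, so that no fold is given for Nupl1, Terc and Pnp. Tonsl, of replication fork repair, was at 6.64 and 7.15 FPKM against 70.7 to 87.6 FPKM, 3.55 lower. Nudt8 was 3.05 lower, Lrrc24 2.62 lower, and the gene models and pseudogenes Gm25776, Gm9800 and Eif3s6-ps2 were 3.96, 3.60 and 3.03 lower, the call of Gm25776 being lost when only the groups compared were fitted. Of these genes Sh3bp1, Nupl1, Tonsl, Pnp, Nudt8, Lrrc24 and Gm25776 overlap another gene on the same strand.

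Histone and small RNA genes were part of this set. Of 55 replication-dependent histone genes, whose transcripts end in a stem-loop in place of a poly(A) tail, 17 were lower and 6 higher, with 10 lower and 8 higher without centring, 29 and 6 after quantile normalization, and 11 and 4 without NoTag replicate 2. H1f3 was at 49.4 and 41.9 FPKM in NoTag and at 366 and 369 FPKM in Q+GL+ cells, 3.17 lower. H2ac6 was 2.58 lower, Hist1h4d 2.22 lower and H1f4 1.57 lower. Near-identical copies make these values uncertain. Of 34 small nuclear, nucleolar and host RNA genes 15 were higher and 5 lower, with a median of 0.45 (3 lower without centring or without either Q+GL+ library). Rn7sk, the RNA that holds P-TEFb, was at 98793 and 86082 FPKM against 30787 and 31671 FPKM, 1.38 higher, but 0.00 after quantile normalization, which cannot show a change of the highest gene. Rpph1, of RNase P, was 2.31 higher, Rmrp 1.66 higher and Malat1, a nuclear RNA, 1.30 lower. The call of Rmrp was lost after quantile normalization.

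The share of genes with a log2 difference of at least 1 in size varied along the genome in NoTag minus Q+GL+, from 1.38% on chromosome 4 to 7.49% on chromosome 13, with 7.14% on chromosome 12 and 6.02% on chromosome 19. In Q-GL- minus Q+GL+ it was 0% to 0.752% and in Q-GL- minus Q-GL+ 0% to 1.04%. Of the 651 genes whose bounds in the table differ from GENCODE vM21 by over 20 bases, 9.22% differed by at least 1 in NoTag minus Q+GL+, against 2.83% of the 11493 genes with equal bounds. Among 29 snoRNA genes the share was 34.5%, among protein-coding genes 2.78%. The snoRNA share was also raised in Q-GL- minus Q+GL+, at 13.8% beside 0.222% of protein-coding genes. In Q-GL- minus Q-GL+ it was 6.90% beside 0.320%. Genes that overlap another gene on the same strand were at 3.95% and the rest at 2.93%. The part of these properties in each gene's difference was not tested. Restricting the fit to the 8799 genes without overlap and with equal bounds left 1912 higher and 1809 lower. There 4 of 4 melanotrope markers were higher, the introduced Pax7 among them, while Pomc fell out for its bounds. Of the cholesterol and fatty acid list and of the glycolysis and hypoxia list, 17 of 18 genes each were lower. Corticotrope markers changed to 2 higher and 2 lower of 5. Of 3 pituitary lineage factors left, 0 were higher and 0 lower.

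**Figure D5:**
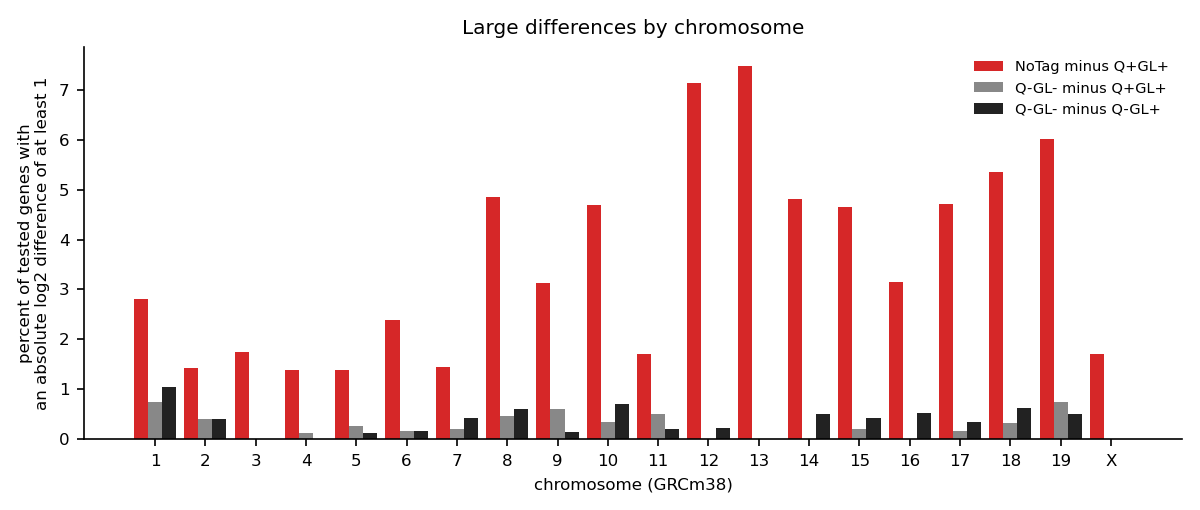
Percent of tested genes on each chromosome whose log2 difference is at least 1 in size, for NoTag minus Q+GL+ (red), Q-GL- minus Q+GL+ (grey) and Q-GL- minus Q-GL+ (black). The red bars run from 1.38% to 7.49% and are highest on chromosomes 13, 12 and 19, and the others do not pass 1.04%.

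The 1 FPKM rule is not a natural boundary. Gm8815, just inside it, was at 1.76 and 1.004 FPKM in NoTag and at 0.945 and 0.672 FPKM in Q+GL+ cells. Itgb8, just outside, was at 0.987 and 1.003 FPKM in NoTag and at 0.9995 and 0.904 FPKM in Q+GL+ cells.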

How the data were processed

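RNA of AtT-20 cells was depleted of ribosomal RNA and sequenced as strand-specific paired-end libraries. The deposited values are treated as FPKM per gene, an assumed unit that neither the labels nor the column names state (the values are not whole and the column totals differ): the authors trimmed reads with Trimmomatic, aligned them with TopHat2 to annotated junctions of Ensembl GRCm38 (release 77, mm10), and obtained gene values with HOMER. Tool versions for this step, the total used for scaling and filters on genes are not given in the sources used here. No counts are in the table, so read depth is unknown, and the count model that the authors name was not run. A further 4 columns of values were not used.

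Of 16385 genes, 14537 were above 0 in all 12 libraries and 12144 also at 1 FPKM or more in at least 2 of the 4 libraries compared. Klk14, Lipn, Nav3, Gm7324, Mx1, Adamts9 and Rspo4 passed this filter through NoTag alone, and Sh3bp1, Nupl1 and Nudt8 through Q+GL+ alone. Values were taken as log2(FPKM + 1) and centred on each library's median, and a linear model with a mean per group was fitted to all 12 libraries by limma with trend and robust variances (R 4.3.3, limma 3.58.1, statmod 1.5.0, Python 3.11.15, pandas 2.3.3, numpy 2.4.6, matplotlib 3.10.9). Genes past the test had a Benjamini-Hochberg adjusted p under 0.05 over all tested genes. Simulated data of 12144 genes tested this fit for NoTag minus Q+GL+, where 92 of 100 changes of 1 (log2) and 53 of 100 changes of 0.5 were found and 8 of 153 calls were false. The simulated noise was independent between genes and libraries, few genes were changed, and no difference in quantification was included. The simulation therefore gives no error rate for the real comparison, where 43.2% of genes passed. Q-GL- minus Q+GL+ shares the Q+GL+ libraries with the main comparison, so both are only set side by side.

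The members and the 34 gene lists were chosen with earlier results of these data known. Named are Pax7, Tbx19, Pomc, Pcsk2, Lmcd1 and Pde2a, all measured members of the melanotrope, Pax7 responsive and corticotrope lists, up to 12 genes per direction with the largest difference among those past the test, whose higher group averaged 5 FPKM or more and whose groups did not overlap, and up to 4 members of each other list with the smallest adjusted p. Some genes that the rule names are not reported here. Genes outside this rule are marked as named after their values were seen. All 12144 genes matched GENCODE vM21, from which biotypes, overlaps and bounds were taken. Genes of the mitochondrial genome were not analysed here. Replicate numbers were checked for pairing: deviations of same-numbered libraries correlated at −0.26 to 0.26, and at −0.07 for NoTag and Q+GL+. The samples were treated as unpaired. The largest values were 0.26 for Pax3 with Pax7 465 and −0.26 for Pax7 465 with Q-GL+, and the check cannot exclude a factor shared by replicate number among those groups. Alternatives were no centring, quantile and trimmed mean scaling, pseudocounts of 0.1 and 0.01, other filters, limma without trend or the robust option, fewer libraries, a replicate block, and each library left out; removal of a trend on exonic length, a fit of genes without overlap and with equal bounds, and a fit without values under 0.0001 were added after the data were seen.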

Additional observations from a re-analysis of the deposited data

Results flagged for a closer look

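Some genes outside the tested set were listed at 0 in NoTag alone or in all groups but NoTag. At 0 in the other 10 libraries and at 1 FPKM or more in both NoTag libraries were 41 genes, among them Pde2a at 11.5 and 11.5 FPKM, and of the 41, 35 overlap another gene on the same strand. In the opposite direction, 32 genes were at 0 in both NoTag libraries and at 1 FPKM or more in the other 10, among them the histone genes Hist1h2bm, at 40.2 and 31.8 FPKM in Q+GL+ cells, and Hist1h2bh, at 50.2 and 45.4 FPKM. Most of the 32, both named histone genes included, had no match in GENCODE vM21, although 16335 of 16385 genes in the table matched it. Whether NoTag was quantified with another annotation was not tested. An exact 0 in a table without counts can be a failed estimate, so no fold is given.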

How the results depend on the processing

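Without centring 4630 genes were higher and 1081 lower in NoTag than in Q+GL+ cells, and with a log2 difference of at least 1 required the count was 378. Leaving out each of the 4 libraries gave 3806 to 3960 genes. A replicate block, although the samples were treated as unpaired, gave 5130 genes in the 4 libraries and 5151 in all 12. Quantile normalization gave 5518 genes, and removing a trend on exonic length, added after the data were seen, 5252. The planned correction with the file's own gene length could not be run, since the table has none. For Q-GL- minus Q+GL+ the count of 358 fell to 187 with only the groups compared and to 112 with a replicate block in 4 libraries (309 in 12), and leaving out a library gave 108 to 275, the fit without Q+GL+ replicate 1 giving 108 and that without its replicate 2 giving 156. Of 147 named genes 144 passed the test, and 88 did among genes without overlap and with equal bounds, where fewer genes were tested. Among genes past the test, changes of sign were Nr3c1 at 0.00084 without centring, Pomc at −0.54 after quantile normalization, and Rn7sk at 0.00 there. Of those not past it, Tbx19 ran from −0.091 to 0.157 and Gata2 from −0.207 to 0.082. Over all settings of the named genes, 2803 values kept their direction and side of the threshold, 51 lost the call and 11 gained it. The cause was not tested. Without counts, the depth behind low values is unknown.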
